A study of Mus musculus with 8 samples.

Results

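The interferon regulatory factor (IRF) family was followed through 8 of its genes, Irf1, Irf2, Irf3, Irf4, Irf5, Irf7, Irf8 and Irf9, which were chosen by name, with every probe for them taken. All 8 were on the array, among 18211 named genes, and 14 probes reported them: 4 for Irf1, 3 for Irf3, 2 for Irf9 and 1 for each of the others. The samples were 8 spontaneous mammary tumours of mice labelled FVB/N-TgN (MMTVneu)-202Mul, a strain in which the mouse mammary tumour virus promoter drives the neu oncogene. Topical imiquimod had been applied for 1 cycle in the mice that gave 4 of the tumours, and the other 4 came from control mice, whose treatment is labelled control cream. All 8 tumours carry the transgene, and the labels give no age. Imiquimod activates TLR7, the endosomal receptor for single-stranded RNA. The comparison asks how treated tumours differed from control tumours. The luminal epithelial keratin Krt18 averaged a log2 signal of 11.67 in imiquimod tumours and 11.87 in control tumours (limma adjusted p = 0.1959). The tight-junction gene Cldn3 averaged 11.33 in imiquimod tumours and 11.57 in control tumours (limma adjusted p = 0.6039). Neither difference passed the test. Of 12 tested luminal markers 1 rose and 0 fell, with a median log2 fold change of -0.0055.

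IRFs are transcription factors with a shared DNA-binding domain that reads GAAA repeats, as in the interferon-stimulated response element (ISRE). IRF3, IRF5 and IRF7 are switched on by phosphorylation downstream of nucleic acid sensors and Toll-like receptors, and IRF7 is the main driver of interferon alpha genes. IRF9 joins STAT proteins to form the complex that carries the type I interferon signal to ISREs, whereas IRF1 is induced by interferon gamma, and IRF2 can oppose it. IRF4 and IRF8 are largely restricted to blood cells, where they pair with PU.1 and BATF proteins.

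Promoter letters of 4 members are shown because the genes that moved include one with no match to either searched motif (Irf7) and one with a match (Irf1), while both members with the most matches (Irf2 and Irf8) did not pass the test. The windows are from RefSeq (GRCm38.p6), 250 bases before to 50 bases after an annotated start, and all 8 members matched, with 11 windows between them. The motifs searched on both strands were an ISRE-like pair of GAAA repeats with any 2 bases between them, and TTCNNNGAA, the form of site that STAT dimers bind. Capitals mark matches.
Irf7 (chr7:141266375-141266674, minus strand, whole window): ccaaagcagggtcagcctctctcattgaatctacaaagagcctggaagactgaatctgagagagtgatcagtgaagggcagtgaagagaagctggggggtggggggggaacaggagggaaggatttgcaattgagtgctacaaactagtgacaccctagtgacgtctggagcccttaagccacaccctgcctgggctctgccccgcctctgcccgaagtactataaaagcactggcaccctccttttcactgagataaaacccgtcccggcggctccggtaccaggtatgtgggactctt
Irf1 (chr11:53769898-53769957, plus strand, around its match): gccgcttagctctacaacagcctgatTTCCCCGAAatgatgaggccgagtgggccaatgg
Irf2 (chr8:46739495-46739554, plus strand, around its matches): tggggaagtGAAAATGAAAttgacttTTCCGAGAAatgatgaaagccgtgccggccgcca
Irf8 (chr8:120736170-120736229, plus strand, around its matches): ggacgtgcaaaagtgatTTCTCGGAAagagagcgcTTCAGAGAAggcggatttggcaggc
Irf1 had TTCCCCGAA with its first base at -90 from the start. Irf2 had both the GAAA pair GAAAATGAAA at -241 and TTCCGAGAA at -224, which do not overlap. Irf8 had TTCTCGGAA at -171 and TTCAGAGAA at -153. The other 5 members (Irf3, Irf4, Irf5, Irf7 and Irf9) had neither motif in any window. Among all 32851 promoter windows of this length, the GAAA pair was in 1131 (3.443%) and TTCNNNGAA in 2726 (8.298%). A match is a run of letters and not a shown binding site, and the absence of a match says only that these letters are not in the window.

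In imiquimod tumours Irf7, Irf9, Irf1 and Irf5 rose, and Irf2, Irf3 and Irf8 did not pass the test. Irf7 had the highest fold, 6.2 (95% confidence interval 3.14 to 12.2), and the others that rose lay between 1.49-fold (Irf5) and 1.95-fold (Irf9). Each gene was represented by its brightest probe, the dimmest 33.3% of probes were left out, and imiquimod was compared with control in limma, with Benjamini-Hochberg adjusted p under 0.05 over 13142 genes and unnamed probes as the threshold. Of the 7 members tested, 4 were higher and 0 were lower, where 2.13% of everything tested was higher and 2.2% was lower. In the same 4 members all imiquimod tumours lay above all control tumours, a separation seen in 5.52% of what was tested. The median log2 fold change of the tested members was 0.58, against -0.02 for all genes tested. Irf4 was too dim for that fit and is given from a fit of every probe. The array signal does not separate more RNA per cell from more cells of a type, in these or any later values.

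**Figure D1:**
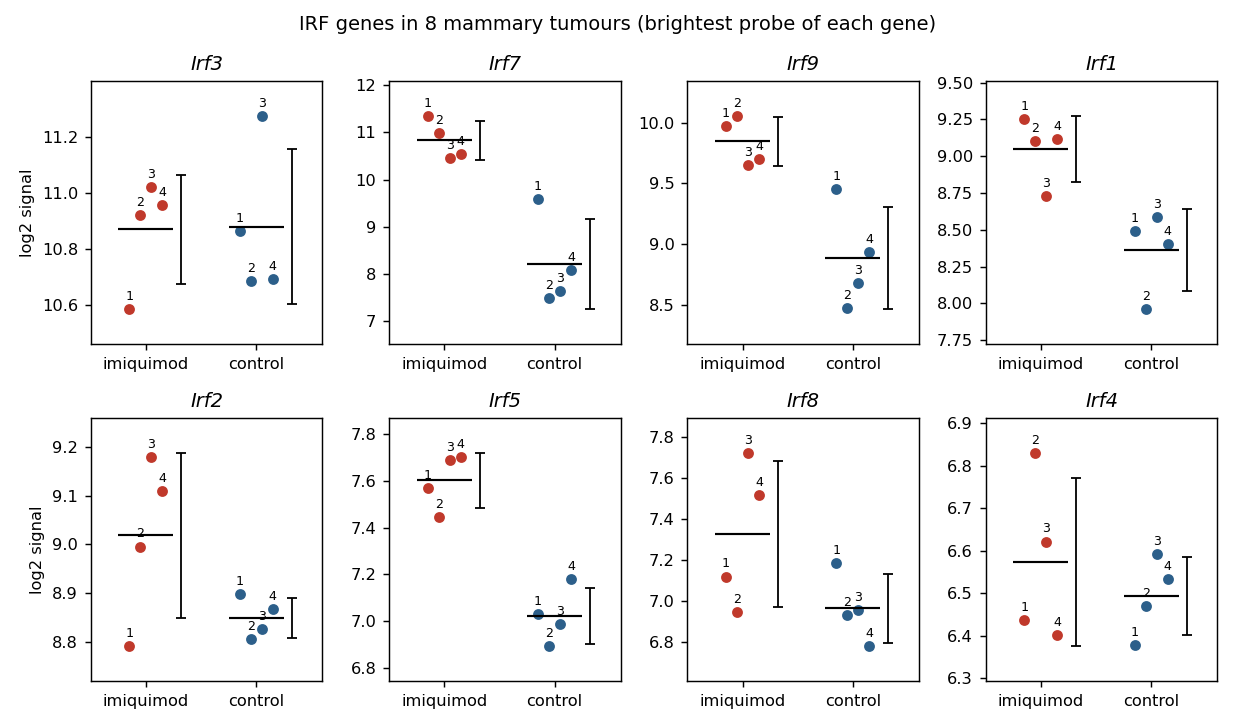
Log2 signal (vertical axis) of the brightest probe of each of 8 IRF genes, 1 panel per gene, with imiquimod tumours left of control tumours. Points are single tumours (4 per group), the line is the group mean and the bar runs 1 SD either side of it; each panel has its own scale, not starting at 0. The groups do not overlap for Irf7, Irf9, Irf1 and Irf5.

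Irf7, the IRF that amplifies interferon alpha production, had log2 signals of 11.35, 10.98, 10.45 and 10.54 in imiquimod tumours 1 to 4, against 9.58, 7.49, 7.64 and 8.09 in control tumours 1 to 4. All 4 imiquimod tumours were above the brightest control tumour, by at least 0.87, and control 1 stood well above the other control tumours. The means were 10.83 ± 0.42 in imiquimod tumours and 8.20 ± 0.96 in control tumours (SD, n = 4 each), a log2 fold change of 2.63 (SE 0.43, limma adjusted p = 0.01407). The control tumours spread over 2.09 log2 units and the imiquimod tumours over 0.90. With control 1 left out the log2 fold change was 3.09 (adjusted p = 0.002843), and with any single tumour left out it stayed between 2.40 and 3.09 and past the threshold.

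Irf9, the DNA-binding subunit of that complex, had 9.98, 10.06, 9.65 and 9.70 on its brightest probe in imiquimod tumours, against 9.45, 8.47, 8.68 and 8.93 in control tumours. Control 1 was again the highest control tumour, only 0.20 below the lowest imiquimod tumour. The means were 9.84 ± 0.20 in imiquimod tumours and 8.88 ± 0.42 in control tumours (SD, n = 4 each), a log2 fold change of 0.96 (SE 0.20, limma adjusted p = 0.03309). The second Irf9 probe gave 8.96, 8.80, 8.36 and 8.48 in imiquimod tumours, against 7.93, 7.51, 7.92 and 7.90 in control tumours. There the groups were 0.43 apart and control 2 was the low one. Its log2 fold change was 0.83 (SE 0.15, adjusted p = 0.0183 in the fit of every probe), so both probes rose. Without control 1 the brightest probe had 1.15 (adjusted p = 0.009577), whereas leaving out any other single tumour gave 0.82 to 1.03 with adjusted p between 0.05054 and 0.08647.

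Irf1, the interferon gamma-induced activator of antigen presentation genes, had 9.25, 9.10, 8.73 and 9.11 on its brightest probe in imiquimod tumours, against 8.49, 7.96, 8.59 and 8.40 in control tumours. The groups were 0.14 apart, with imiquimod 3 the lowest treated tumour and control 3 the highest control. The means were 9.05 ± 0.22 in imiquimod tumours and 8.36 ± 0.28 in control tumours (SD, n = 4 each), a log2 fold change of 0.69 (SE 0.16, limma adjusted p = 0.04443). This call was the closest to the threshold among the 4: it held without imiquimod 3 (0.80, adjusted p = 0.03786), while without any other single tumour the log2 fold change was 0.56 to 0.77 with adjusted p between 0.05339 and 0.1094. The other 3 Irf1 probes were dimmer. The second had 7.40, 7.49, 7.17 and 7.23 in imiquimod tumours, against 6.99, 6.91, 7.09 and 6.90 in control tumours (log2 fold change 0.35, limma adjusted p = 0.06985). The third had 7.29, 7.17, 7.14 and 7.08 in imiquimod tumours, against 6.91, 6.83, 6.90 and 6.87 in control tumours (0.29, limma adjusted p = 0.05351). The groups did not overlap on either, though neither passed the test. The fourth, under the limit for dim probes, had 6.61, 6.62, 6.47 and 6.66 in imiquimod tumours, against 6.43, 6.42, 6.62 and 6.33 in control tumours, and these overlapped (0.14, limma adjusted p = 0.4714).

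Irf5, which acts with MyD88 to drive inflammatory cytokines in myeloid cells, had 7.57, 7.45, 7.69 and 7.70 in imiquimod tumours, against 7.03, 6.89, 6.99 and 7.18 in control tumours. The groups were 0.27 apart, and each spread over less than 0.30. The means were 7.60 ± 0.12 in imiquimod tumours and 7.02 ± 0.12 in control tumours (SD, n = 4 each), a log2 fold change of 0.58 (SE 0.09, limma adjusted p = 0.01035). It stayed past the threshold when any single tumour was left out (0.54 to 0.63).

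Irf8, needed for monocyte and dendritic cell development, had 7.12, 6.94, 7.73 and 7.52 in imiquimod tumours, against 7.19, 6.93, 6.95 and 6.78 in control tumours. Imiquimod 3 and 4 were above every control tumour, and imiquimod 1 and 2 lay within the control range. The log2 fold change was 0.36 (SE 0.17, limma adjusted p = 0.2753), with a 95% confidence interval of -0.02 to 0.75. Without imiquimod 3 it was 0.23, without imiquimod 3 and 4 together 0.07, and over all single tumours left out it ran between 0.23 and 0.49. Irf4, the lymphoid member active in B, plasma and T cells, had 6.44, 6.83, 6.62 and 6.40 in imiquimod tumours, against 6.38, 6.47, 6.59 and 6.53 in control tumours. Its probe averaged 6.53, under the dim limit of 6.64, the groups overlapped, and its log2 fold change in the fit of every probe was 0.08 (95% confidence interval -0.15 to 0.31, limma adjusted p = 0.7862).

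Irf3, the constitutively made partner of TBK1 that starts interferon beta transcription, had 10.58, 10.92, 11.02 and 10.96 on its brightest probe in imiquimod tumours, against 10.86, 10.69, 11.27 and 10.69 in control tumours. The groups overlapped, with means of 10.87 ± 0.19 in imiquimod tumours and 10.88 ± 0.28 in control tumours (SD, n = 4 each). The log2 fold change was -0.01 (limma adjusted p = 0.9809), with a 95% confidence interval of -0.35 to 0.33, so changes of the size fitted for Irf7, Irf9, Irf1 and Irf5 lie outside it, whereas a small change in either direction does not. The other 2 Irf3 probes gave -0.12 and 0.07, on overlapping groups. Irf2, the repressor of many IRF1 targets, had 8.79, 8.996, 9.18 and 9.11 in imiquimod tumours, against 8.90, 8.81, 8.83 and 8.87 in control tumours. Imiquimod 2, 3 and 4 were above all control tumours and imiquimod 1 was below all of them. Its log2 fold change was 0.17 (SE 0.09, limma adjusted p = 0.3327), with a 95% confidence interval of -0.03 to 0.37, and without imiquimod 3 and 4 it was 0.04.

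Probe by probe, 12 of 14 log2 fold changes were positive and 2 were negative, both of them Irf3 probes. The median log2 fold change of all 24341 probes was -0.01. In the fit of every probe 5 of 14 IRF probes were higher, where 1.33% of all 24341 probes were, and 0 were lower. On 7 of 14 probes all imiquimod tumours lay above all control tumours, against 3.96% of all probes. Probes of the same gene are not independent, and several of these are of Irf1 or Irf9.

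**Figure D2:**
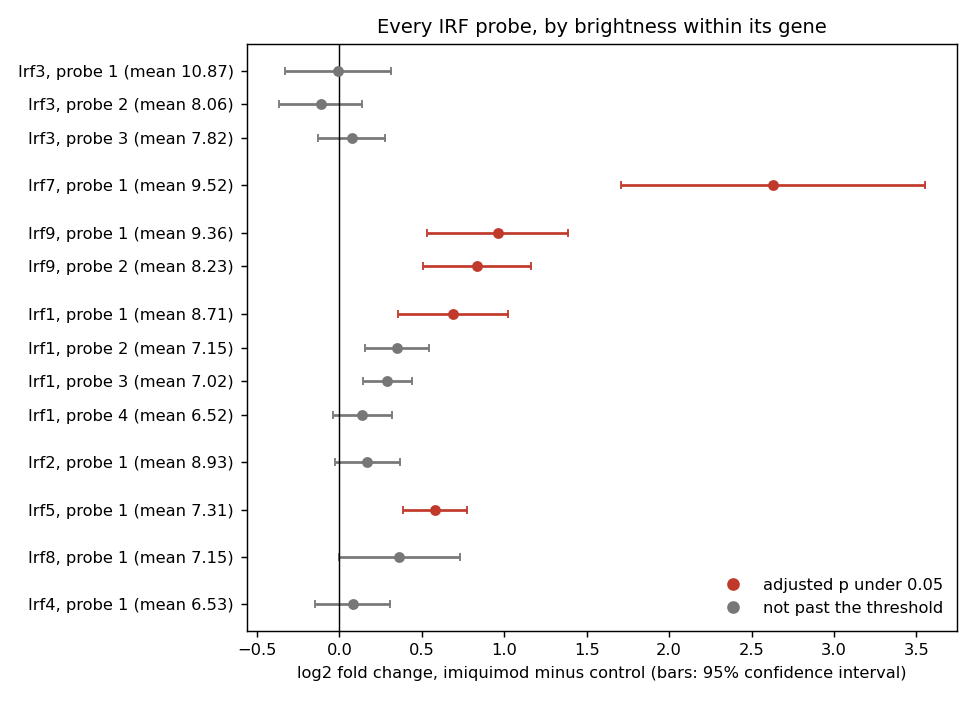
Log2 fold change, imiquimod minus control (horizontal axis), of the 14 IRF probes in the fit of every probe, 1 row per probe, with the 95% confidence interval as a bar. Red marks adjusted p under 0.05: Irf7, both Irf9 probes, the brightest Irf1 probe and Irf5.

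Whether members responded differently from each other was asked over 28 pairs, taking the difference between genes within each tumour (exact permutation test, two-sided, 4 tumours against 4, smallest possible p 0.0286). The log2 fold change of Irf7 was above that of each other member by 1.67 (Irf9) to 2.64 (Irf3). The difference between Irf9 and Irf3 was 0.97, between Irf1 and Irf3 0.70, between Irf5 and Irf3 0.59 and between Irf5 and Irf2 0.41. These 11 pairs were at the smallest possible p, which adjusted over the 28 pairs (Benjamini-Hochberg) is 0.0727, so 0 pairs passed. A pair could pass only if more pairs reached that p together, whatever the size of its own difference. The count of 0 therefore does not show that members responded alike. The responses of Irf9, Irf1 and Irf5 differed from each other by 0.11 to 0.38, with p of 0.2 or more in this exact permutation test. A difference within an array compares probes that can respond differently to the same change in RNA.

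Upstream, 2 of 19 tested genes for sensors and adaptors rose and 0 fell, with a median log2 fold change of 0.29. Over everything tested 2.13% was higher and 2.2% lower, the shares to set beside this and every later list count. The sensor genes that rose were Ddx58 (RIG-I, a cytosolic sensor of viral RNA) and the lipopolysaccharide receptor gene Tlr4 (0.80, SE 0.15, limma adjusted p = 0.0209). Ddx58 was at 9.18 ± 0.32 in imiquimod tumours and 7.70 ± 0.48 in control tumours (1.48, SE 0.24, limma adjusted p = 0.01441). It is also counted among the ISRE-driven genes below. Tlr7, the receptor for imiquimod, averaged 6.84 ± 0.26 in imiquimod tumours and 6.48 ± 0.16 in control tumours (0.36, SE 0.13, limma adjusted p = 0.1677). Its control mean was under the dim limit of 6.64, where signals can understate a change, so this does not show that Tlr7 RNA was unchanged. Unc93b1, the chaperone of endosomal Toll-like receptors, had a log2 fold change of 0.48 and Mavs, the adaptor of RIG-I, had -0.27, neither past the threshold. The count of 2 was 1 without imiquimod 2 or without control 4, and 0 without imiquimod 3 and 4 together.

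Among interferon ligands and receptors, 2 of 10 tested genes rose and 0 fell (median 0.04). These were the receptor genes Ifngr1, for interferon gamma (0.64, SE 0.11, limma adjusted p = 0.01736), and Ifnlr1, for interferon lambda (0.78, SE 0.18, limma adjusted p = 0.04767). Ifnar2, for type I interferon, had 0.21 and Il10rb 0.13, and neither passed. The 4 ligand genes that passed the filter had log2 fold changes of 0.01 (Ifnb1), -0.04 (Ifna5), 0.04 (Ifnk) and -0.08 (Ifne), none past the threshold. Their group means were only 6.60 to 6.74, next to the dim limit of 6.64. Signals there can understate a change, so these values do not show that ligand RNA was unchanged. The other ligand genes of the list were dim or off the array. The count of 2 was 1 without imiquimod 2, imiquimod 4, control 2 or control 3, and 0 without imiquimod 3, control 1 or control 4 or without imiquimod 3 and 4 together. It was also 1 with the replicate block, with array weights and with the mean of a gene's probes.

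Of 15 tested JAK-STAT partners and feedback genes, 6 rose and 0 fell (median 0.39). Stat2, a partner of IRF9, averaged 7.54 ± 0.26 in imiquimod tumours and 6.67 ± 0.26 in control tumours (log2 fold change 0.87, SE 0.16, limma adjusted p = 0.02213). Usp18, which restrains the type I interferon receptor and is also counted among the ISRE-driven genes below, rose by 2.20 (limma adjusted p = 0.02259). Socs3, which restrains cytokine receptors, rose by 2.43 (limma adjusted p = 0.005125), and Pias1, an inhibitor of STAT signalling, rose by 0.40 (limma adjusted p = 0.02289). The count of 6 was 1 without imiquimod 2, 2 without imiquimod 3, control 3 or control 4, 3 without imiquimod 4, and 1 without imiquimod 3 and 4 together.

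Of 15 tested IRF binding partners and IRF2-binding proteins, 1 rose and 0 fell (median 0.06). It was Batf2, an IRF1 partner, at 7.32 ± 0.20 in imiquimod tumours and 6.52 ± 0.22 in control tumours (0.80, SE 0.13, limma adjusted p = 0.01465). Its control mean was under the dim limit of 6.64, so Batf2 passed the filter only through the imiquimod tumours. Spi1, which encodes PU.1, averaged 7.08 ± 0.12 in imiquimod tumours and 6.72 ± 0.15 in control tumours (0.37, SE 0.10, limma adjusted p = 0.06822). Tnfaip3 had 0.60, Batf 0.28, Irf2bp1 -0.39 and Irf2bpl 0.03, none past the threshold. The count of 1 was 2 without imiquimod 1 or control 1, and 0 without imiquimod 3 and 4 together.

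The lists of target genes, drawn up with earlier results of these data known, differed in their counts. Each is named for a regulator, and control of the genes by that regulator in these tumours was not tested. Of 20 tested ISRE-driven interferon-stimulated genes, 16 rose and 0 fell, with a median log2 fold change of 1.44, where 2.13% of everything tested rose. Among the ISRE-driven genes that rose were Ifit3, at 9.63 ± 0.74 in imiquimod tumours and 7.10 ± 0.29 in control tumours (2.52, limma adjusted p = 0.005335), Samd9l (1.36), Oasl1 (1.51) and the RNA-editing enzyme gene Adar (0.92). Oasl1 (6.62), Mx1 (6.59) and Oas2 (6.39), all among the genes that rose, had control means under the dim limit of 6.64. They passed the filter only through the imiquimod tumours, as did Gbp5 (control mean 6.55) among the risen genes of the next list. Of 21 tested genes listed as controlled by IRF1 with interferon gamma, 7 rose and 0 fell (median 0.52). They included Cd274, which encodes PD-L1, at 8.73 ± 0.17 in imiquimod tumours and 7.18 ± 0.18 in control tumours (1.56, limma adjusted p = 0.0008158), the GTPase gene Gbp3 (2.39), the peptide transporter gene Tap2 (0.79) and the chemokine gene Cxcl9 (2.33). Without imiquimod 3 and 4 together, 5 ISRE-driven genes and 4 genes of the IRF1 list rose.

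Of 8 tested inflammatory genes listed under IRF5, 4 rose and 0 fell (median 0.73). They were the chemokine genes Ccl4 (4.70), Ccl3 (3.21) and Ccl5 (2.28), and Tnf (0.56, SE 0.10, limma adjusted p = 0.02033). Whether IRF5 controls them here was not tested. Ccl4 averaged 11.61 ± 0.88 in imiquimod tumours and 6.90 ± 0.13 in control tumours. Tnf averaged 6.51 in control tumours, under the dim limit of 6.64, and passed the filter only through the imiquimod tumours. Of 11 tested myeloid genes listed under IRF8 and PU.1, 2 rose and 0 fell (median 0.09). They were the oxidase subunit gene Ncf4 (1.02, limma adjusted p = 0.0227) and the Fc receptor gene Fcgr1 (0.75, limma adjusted p = 0.0285). Fcgr1 is also on the list of macrophage and monocyte markers. Its control mean, 6.55, was under the same limit, so it too passed the filter only through the imiquimod tumours. The protease gene Ctss had 0.51 (limma adjusted p = 0.1296). The count of 2 in this list was 1 without imiquimod 3 or control 2 or without imiquimod 3 and 4 together, and 0 without imiquimod 4, control 1, control 3 or control 4.

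**Figure D3:**
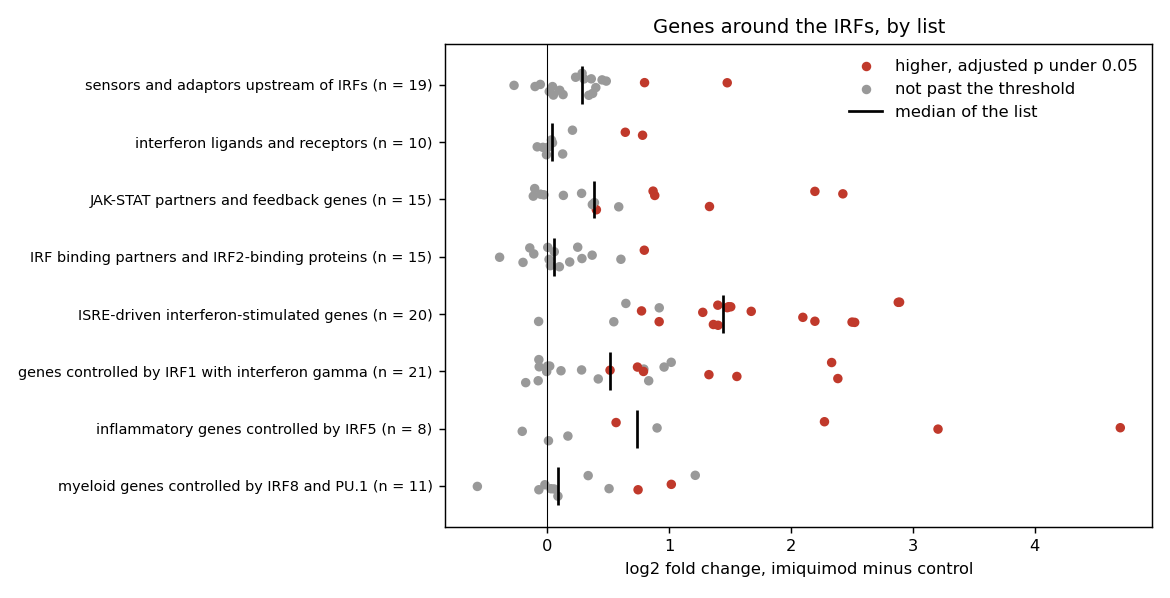
Log2 fold change, imiquimod minus control (horizontal axis), of the tested genes of 8 lists around the IRFs, 1 row per list. Each dot is a gene, red where adjusted p was under 0.05, and the bar is the list median, which runs between 0.04 for interferon ligands and receptors and 1.44 for ISRE-driven genes.

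Tumour by tumour, the mean log2 difference of the ISRE-driven genes from the control mean was 1.62, 1.84, 1.54 and 1.09 in imiquimod tumours 1 to 4, against 0.55, -0.43, -0.15 and 0.03 in control tumours 1 to 4. Irf7 differed from its control mean by 3.15, 2.78, 2.25 and 2.34 in the imiquimod tumours, against 1.38, -0.71, -0.56 and -0.11 in the control tumours. Control 1 was the highest control tumour and control 2 the lowest on both measures, as for Irf9 (0.57 and -0.41).

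**Figure D4:**
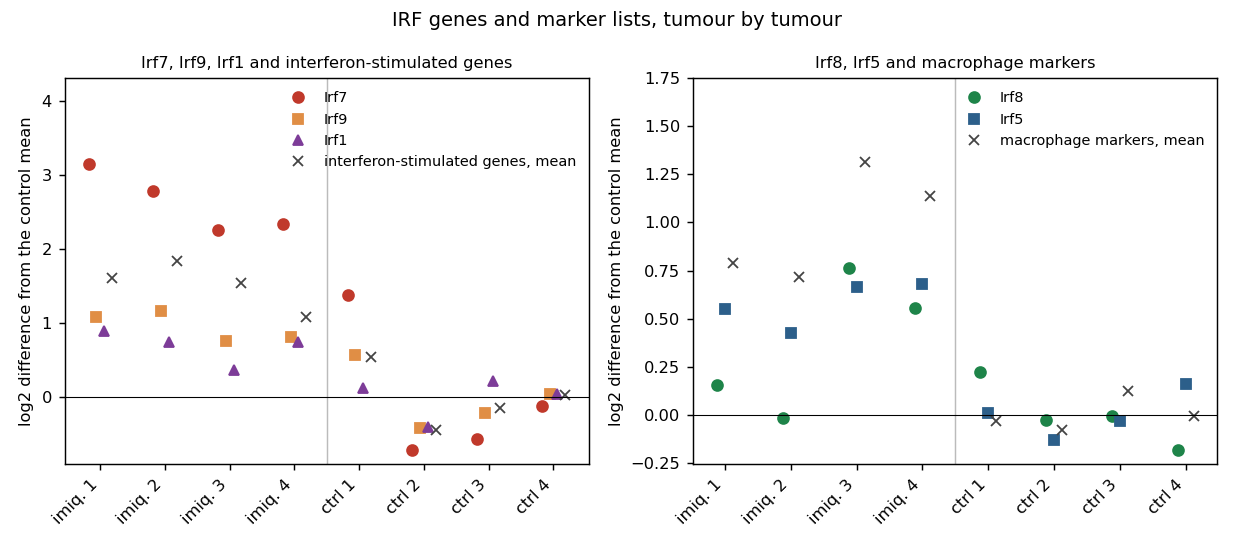
Log2 difference from the control mean (vertical axis) in each tumour, imiquimod tumours left of control tumours. The left panel shows Irf7, Irf9 and Irf1 with the mean of the ISRE-driven genes, and the right panel Irf8 and Irf5 with the mean of the macrophage markers. In the right panel imiquimod 3 and 4 are the highest for Irf8, Irf5 and the macrophage markers.

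Among the marker lists for other cells, that of macrophages had the most calls. Of 15 tested macrophage and monocyte markers 8 rose and 0 fell (median 0.75), where 2.13% of everything tested rose. The mean level of these markers was 8.39 to 8.99 in imiquimod tumours and 7.59 to 7.80 in control tumours. Without imiquimod 3 and 4 together 4 rose. Cd14 averaged 11.06 ± 0.73 in imiquimod tumours and 8.51 ± 0.26 in control tumours, whereas the brightest marker, Lyz2, averaged 9.97 ± 0.66 in imiquimod tumours and 9.76 ± 0.81 in control tumours (log2 fold change 0.21, limma adjusted p = 0.8427). The list mean differed from the control mean by 0.79, 0.72, 1.31 and 1.14 in imiquimod tumours 1 to 4, with the higher values in the tumours where Irf8 was high. The skeletal muscle markers, of which 0 of 9 passed the test, stood apart in the same pair, at -0.14, -0.22, 2.08 and 1.93 in imiquimod tumours and 0.58, -0.32, -0.25 and -0.004 in control tumours. Endothelial markers were at 0.0007, -0.05, 0.47 and 0.57 in imiquimod tumours 1 to 4, against 0.02, 0.05, 0.19 and -0.26 in control tumours. Neutrophil markers were at 0.08, 0.21, 0.80 and 0.38 in imiquimod tumours, against -0.02 to 0.02 in control tumours. Both lists were thus highest in imiquimod 3 and 4, whereas keratinocyte markers stood highest in imiquimod 1 (0.90, against 0.07 to 0.26 in the other imiquimod tumours), the tumour with the highest Irf7 and Irf1. Plasmacytoid dendritic cell markers were also highest in imiquimod 3 and 4, at 0.25, 0.38, 0.67 and 0.44, against -0.24 to 0.34 in control tumours. So were the genes listed under IRF8 and PU.1, at 0.18, 0.03, 0.46 and 0.55, against -0.09 to 0.05 in control tumours. Some other lists split the tumours otherwise. Fibroblast markers were at 0.02, 0.86, 1.29 and 0.75 in imiquimod tumours 1 to 4, against -0.22 to 0.14 in control tumours. Adipocyte markers were at 0.14, 0.81, 0.83 and 0.003 in imiquimod tumours 1 to 4, against -0.20 to 0.23 in control tumours. The part of these cells in the IRF results was not tested. Without imiquimod 3 and 4 the log2 fold changes were 2.97 for Irf7 (limma adjusted p = 0.0739), 1.13 for Irf9 (limma adjusted p = 0.1183), 0.82 for Irf1 (limma adjusted p = 0.1096) and 0.49 for Irf5 (limma adjusted p = 0.1111). They were 0.07 for Irf8, 0.04 for Irf2 and -0.13 for Irf3, and 0 of 7 members passed with 2 tumours against 4.

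Other marker lists had few calls, where 2.13% of everything tested was higher. Of 10 tested plasmacytoid dendritic cell markers 1 rose, Bst2, which is also on the ISRE list, and Tcf4 had 0.25 (limma adjusted p = 0.596). Of 10 conventional dendritic cell markers 1 rose, Itgax (0.62), and Cd74 had 0.90 (limma adjusted p = 0.1608). Itgax averaged 6.46 in control tumours, under the dim limit of 6.64, and passed the filter only through the imiquimod tumours. Of 6 B and plasma cell markers 1 rose, Ighm (1.04). Of 13 T cell, 5 NK cell and 8 neutrophil markers 0 passed, and the T cell list, whose brightest member Cd3d averaged 7.17 in imiquimod tumours and 7.22 in control tumours, had a median of -0.02. Of 8 keratinocyte markers 1 rose, Krt14 (1.39), of 10 fibroblast markers 1, Dcn (2.35), of 12 luminal markers 1, Muc1 (1.14), and of 7 endothelial and 8 adipocyte markers 0. Single tumours decided several of these counts. The dendritic call (Itgax) was lost without control 1 or control 4, the luminal call without imiquimod 3 or any control tumour, the keratinocyte call without imiquimod 1, imiquimod 3 or any control tumour, and the fibroblast call without any single tumour except imiquimod 1. Without imiquimod 1, 6 fibroblast, 2 plasmacytoid, 2 neutrophil and 1 adipocyte markers passed, and without imiquimod 3, 1 neutrophil marker did.

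The genes whose log2 values over the 8 tumours ran closest to those of each IRF that rose, after centring each gene, were named by the root mean square difference. For Irf7 they were Bst2 (0.21), Isg15 (0.288) and Usp18 (0.326). Bst2 had 13.57, 13.69, 13.12 and 12.84 in imiquimod tumours, against 12.04, 10.17, 10.05 and 10.95 in control tumours. Control 1 was its highest control tumour. Bst2 was picked for closeness to Irf7 over these same tumours, so that likeness follows from the choice. For Irf9 they were Zc3hav1 (0.143), Mitd1 (0.151) and Cmpk2 (0.164), for Irf1 Selenow (0.131), Spns3 (0.152) and Ly6e (0.158), and for Irf5 1700025G04Rik (0.0883), Fgl2 (0.0955) and Rnf19b (0.0985). A gene with a smaller change has less room to differ, so these distances are not comparable between members.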

How the data were processed

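Per the labels' protocols, tumour RNA was amplified to biotin-labelled cRNA and hybridised to Illumina bead arrays. The authors deposited log2 signals for the 8 tumours, with medians of 6.82 on every array, and these were used as deposited. The highest value was 15.07 on each imiquimod array and 14.86 on each control array, and an effect of separate scaling of the groups cannot be told apart from that of treatment. Of tools, affy is named in the submitters' processing notes, with no version or role, and the background correction is not given in the sources used here. The planned start from non-normalized signals was not possible, since the 16 columns of per-sample values there match no label, and they were not used here. The labels do not state that each tumour is from its own mouse, and the p-values therefore measure only the spread between these tumours, which may be technical. The number of arrays limits the precision. Array correlations were 0.9515 to 0.9845 within groups and 0.9107 to 0.9674 between them.

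Of 24341 probes, 20038 were named through an accession, 1620 through a current symbol, 1736 through a synonym and 692 by the file's symbol, and 255 have no name. All 14 IRF probes matched through an accession. Probes under a mean of 6.64 (33.3%) were left out, which kept 16227, and the brightest probe stood for each gene. That mean was over all 8 tumours, so a probe under the limit in control tumours could pass through the imiquimod tumours. The model was lmFit with eBayes (limma 3.58.1, R 4.3.3, two-sided tests), with Benjamini-Hochberg adjustment over 13142 genes and unnamed probes, or over all 24341 probes without the filter. Fold changes are imiquimod minus control. The procedure was tested on simulated data.

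The members, lists and tests were chosen with earlier results of these data known. The genes named are the IRFs, at most 4 members of each pathway list with the smallest p, Tlr7, Stat2, Usp18 and Spi1, at most 2 members of each marker list with the highest mean, the IRF2-binding genes, and 3 nearest genes for each IRF past the threshold. Some genes that this rule names are not reported here. The markers Itgax, Krt14 and Muc1 and the ligand genes Ifnb1, Ifna5, Ifnk and Ifne were named after their values were seen. Alternatives were the normalization, a normexp background correction, the filter, the probe of a gene, the variance model, array weights, the replicate block, the threshold and tumours left out. Replicate numbers did not pair the tumours.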

Additional observations from a re-analysis of the deposited data

Results flagged for a closer look

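Of 28 groups of 4 tumours (each IRF probe in each treatment group), 2 held a tumour whose gap to the nearest other was a larger share of the group's range than Dixon's 95% critical value for 4 samples. Chance flags about 5% of such groups. On the second Irf3 probe imiquimod 1 was at 8.065, with the nearest imiquimod tumour at 7.9922 (0.879 of the range), although the imiquimod tumours spread over only 0.083 there. On the second Irf9 probe control 2 was at 7.5127, with the nearest control tumour at 7.902 (0.927 of the range). Without control 2 that probe's log2 fold change was 0.73 (limma adjusted p = 0.03045).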

How the results depend on the processing

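Of the 4 IRF genes that rose, all 4 passed under repeated quantile normalization, equal array medians and normexp with offset 50 or 16. All 4 also passed with no filter or a stricter one, an intensity trend, robust variance and array weights. So they did with the mean of a gene's kept probes and with its most variable probe. The most variable probe gave the same log2 fold change as the brightest for Irf1 (0.69) and Irf9 (0.96). Taken singly, the other Irf1 probes did not pass in the fit of every probe. The log2 fold changes of these 4 genes moved by over 1.5 times for Irf1 with the mean of its kept probes (0.44) and for Irf5 with normexp at offset 16 (0.88). That offset gave 0.57 for Irf8. With the replicate block Irf1 was 0.69 (adjusted p = 0.08263) and no longer passed, and no other IRF gene call changed. The block moved the genes higher to 249 and lower to 252. Same-numbered tumours had deviations that correlated between -0.021 and 0.035, so the numbers were not taken as pairs, and 1 imiquimod tumour correlated best with its own number. With a tumour left out in turn, log2 fold changes were 0.56 to 0.80 for Irf1, 0.54 to 0.63 for Irf5, 2.40 to 3.09 for Irf7 and 0.82 to 1.15 for Irf9. Irf5 and Irf7 passed in all 8 such fits. Irf3 ran between -0.0738 and 0.12 on its brightest probe and turned positive without imiquimod 1 (0.09) or control 3 (0.12). The Irf4 probe ran between -0.0065 (without imiquimod 2) and 0.1363. With imiquimod 3 and 4 left out, Irf1 was 0.82, Irf5 0.49, Irf7 2.97 and Irf9 1.13, none past the threshold. That setting was not run for pairs of IRFs, since 2 tumours against 4 cannot reach the threshold. Irf1 minus Irf5 was -0.0816 under normexp with offset 16, and Irf4 minus Irf3 ran between -0.0098 (without control 3) and 0.1746 with a tumour left out.

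Genes higher numbered 280 and lower 289. Leaving out 1 tumour gave 145 to 454 higher and 123 to 457 lower. The highest counts were without imiquimod 1. Without imiquimod 2, 3 or 4 or control 1, 3 or 4 at most 176 were higher, and without imiquimod 2, 3 or 4 or control 1 or 4 at most 151 were lower. Leaving out imiquimod 3 and 4 gave 71 and 41. List counts moved by over 1.5 times in 96 of their settings and not in 870. At an adjusted p of 0.1 the sensors and adaptors that rose were 7, and at 0.01 the ISRE-driven genes were 4. An adjusted p of 0.01 gave 65 and 65, and 0.1 gave 531 and 658. Of every probe, 323 were higher and 320 lower, against 173 to 528 and 138 to 529 with 1 tumour left out and 99 and 58 without imiquimod 3 and 4. In the fit of every probe adjusted p was 0.05082 for Irf7 and 0.0503 for the brightest Irf9 probe under robust variance, and for the brightest Irf1 probe 0.05339 under normexp with offset 16 and 0.05516 under an intensity trend. The causes of these differences were not tested. Dim probes such as that of Irf4 sit near the array's floor, where signals can understate a change.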
